A study of Mus musculus with 60 samples.

Results

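The G1 cyclins Ccnd1, Ccnd2, Ccnd3, Ccne1 and Ccne2, the cyclin-dependent kinases Cdk2, Cdk4 and Cdk6, and Cdc25a were followed in single breast cancer cells recovered from mouse bone. These 9 genes were chosen by name, out of 47729 mouse genes counted, and all 9 had counts. Cdc25a is neither a cyclin nor a kinase. It is the phosphatase that takes inhibitory phosphate off CDK2, and it belongs to the set for that role.

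The cells were PyMT-Bo1, a mouse mammary tumour line that carries luciferase, mApple and Thy1.1 transgenes. They were stained with DiD, a membrane dye that is diluted each time a cell divides, and given to wild-type C57BL6 mice by intracardiac injection. Femurs and tibias of 5 mice were pooled, and cells were sorted 1 to a well as DiD+ (DiD intensity High, 32 cells, taken by the study as dormant) or DiD- (DiD intensity Low, 28 cells, taken as proliferative). By the study's design all 60 cells thus share the line, the injection route and the wild-type host, and the groups were defined by the dye that a cell had kept. No mouse is named for any cell, so each group counts as 1 sample, the differences below have no replicate check, and no p-value is given.

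Counts on mouse genes ran from 2276795 to 7794224 per DiD+ cell (median 4653722.5) and from 2624416 to 6199117 per DiD- cell (median 4440165.5). A gene at 0 counts over a whole group could therefore still lie at up to 0.0205 CPM (counts of a gene per 1000000 counts on mouse genes) in DiD+ and 0.0251 CPM in DiD-, taking 3 counts as the limit. Krt8, a keratin of simple epithelia, reached 10 counts in all 60 cells, whereas Krt19, Epcam and Krt7 had no counts, and Cdh1 had at most 0.00685 CPM in either group, so 4 of 6 epithelial markers were at or near 0. Transgene counts were found in 31 of 32 DiD+ cells and in all 28 DiD- cells. At least 7 of 13 macrophage or monocyte markers were at 10 counts or more in 6 DiD+ cells (cells 19, 21, 24, 30, 37 and 88) and in 1 DiD- cell (cell 84). Summed, the 13 markers ran from 0 to 19765 CPM over DiD+ cells and from 0 to 1751 CPM over DiD- cells, and none of them was at 0 in either group. The cell without transgene counts, DiD+ cell 30, was 1 of these macrophage-marker cells. Transgene counts therefore do not mark it as a PyMT-Bo1 cell. Values without these 7 cells are given wherever they bear on a result.

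D-type cyclins are made when growth signals reach a cell in G1. They bind CDK4 or CDK6, and these kinases begin to phosphorylate the retinoblastoma protein, which holds E2F transcription factors in check. E-type cyclins are themselves E2F targets. They switch on CDK2 late in G1, and CDC25A clears the inhibitory phosphate from it, so that the cell can fire its replication origins and enter S phase. In mammary tumours, cyclin D1 and its kinase CDK4 are a known route by which some oncogenes drive this step.

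In mouse genome build GRCm38 the D-type cyclins lie at chr7:144929931-144939925 (Ccnd1, ENSMUSG00000070348), chr6:127125162-127152193 (Ccnd2, ENSMUSG00000000184) and chr17:47505051-47599691 (Ccnd3, ENSMUSG00000034165). Their kinases lie at chr10:127063534-127067920 (Cdk4, ENSMUSG00000006728) and chr5:3341485-3531008 (Cdk6, ENSMUSG00000040274). The E-type cyclins are at chr7:38097984-38107534 (Ccne1, ENSMUSG00000002068) and chr4:11191351-11204779 (Ccne2, ENSMUSG00000028212), and Cdk2 (ENSMUSG00000025358) and Cdc25a (ENSMUSG00000032477) are at chr10:128697939-128705031 and chr9:109875579-109893895. Library construction did not keep strand, so reads cannot be told apart where exons of 2 genes overlap on opposite strands. This touched 23.4% of the exonic bases of Ccnd1 (shared with LTO1), 19.7% of Cdk4 (Tspan31) and 17.4% of Ccne2 (Ints8), between 0.547 and 7.86% of those of Ccnd2, Ccnd3, Cdk2 and Cdk6, and none of Ccne1 or Cdc25a.

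Because E2F and MYC-type factors are known regulators of this family, 2 kinds of short word were looked for in the 250 bases before the start of each gene in RefSeq's mouse assembly GRCm38.p6. One was the E-box CACGTG, which reads the same on both strands. The other was an E2F-type word, TTTCCCGC or TTTGGCGC, on either strand. RefSeq promoters were matched for 6 of the 9 genes (Ccnd3, Ccne1, Cdc25a, Cdk2, Cdk4 and Cdk6), while Ccnd1, Ccnd2 and Ccne2 had no entry. The E-box stood in 6.02% of all 32851 promoters and an E2F-type word in 1.30%. Cdk4, which below has the narrowest range of ratios when single cells are left out, held 4 E-boxes, at 172, 118, 98 and 11 bases before its start, and at least 4 were found in 7 of 32851 promoters (0.0213%). The stretch that carries them is shown for that reason, from the plus strand at chr10:127063352-127063533, with the E-boxes in capitals.
Cdk4: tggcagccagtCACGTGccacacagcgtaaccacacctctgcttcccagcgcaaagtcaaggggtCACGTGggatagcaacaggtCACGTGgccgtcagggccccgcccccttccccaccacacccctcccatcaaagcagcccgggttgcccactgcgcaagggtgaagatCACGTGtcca
The other kinase of the D-type cyclins had 1 E-box, 220 bases before its start (plus strand, chr5:3343662-3343689).
Cdk6: ttctgcggcccCACGTGggtgaaccccc
Cdc25a and Cdk2 each held 1 E2F-type word, 67 bases before the start of Cdc25a (plus strand, chr9:109875501-109875530) and 140 bases before that of Cdk2 (minus strand, chr10:128705173-128705202, read here as its reverse complement, in a stretch that also lies in an exon of Pmel). These lines have the E2F-type word in capitals.
Cdc25a: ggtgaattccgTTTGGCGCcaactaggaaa
Cdk2: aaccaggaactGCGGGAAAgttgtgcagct
No E-box or E2F-type word stood in these windows of Ccne1 or Ccnd3. A match is a string of letters and was not tied to binding or to expression in these cells.

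Between the groups, none of the 9 genes differed by 2-fold or more. Levels were taken as the counts of a gene summed over the cells of a group, in CPM, and compared as the log2 ratio of DiD+ over DiD- with a pseudocount of 1 CPM. Cdk4 was lower in DiD+ cells (log2 ratio -0.48), as were Ccne2 (-0.59), Ccnd1 (-0.37), Cdc25a (-0.26) and Cdk2 (-0.23). Cdk6 (0.56), Ccne1 (0.54), Ccnd2 (0.34) and Ccnd3 (0.06) were higher. Of these, Ccnd2 and Ccne1 rested on few cells, and Cdc25a on 1, as described below.

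Read against the background, 0 of 9 genes past 2-fold compares with 16.9% of the 12432 genes that had at least 1 CPM in a group. Of those genes 12.1% had a log2 ratio of at least 1 and 4.86% of at most -1. A lower level in DiD+ was seen for 5 of the 9 genes, against 46.7% of the 12432. The median ratio was -0.23 over the 9, and -0.24 over the 8 with at least 1 CPM in a group (Ccnd2 reached 0.999 CPM), beside 0.04 over all 12432, whose middle 50% ran from -0.29 to 0.46. This median is close to the value of single genes: it was 0.03 without DiD- cell 28, and -0.05 when each cell's CPM was averaged with equal weight.

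**Figure D1:**
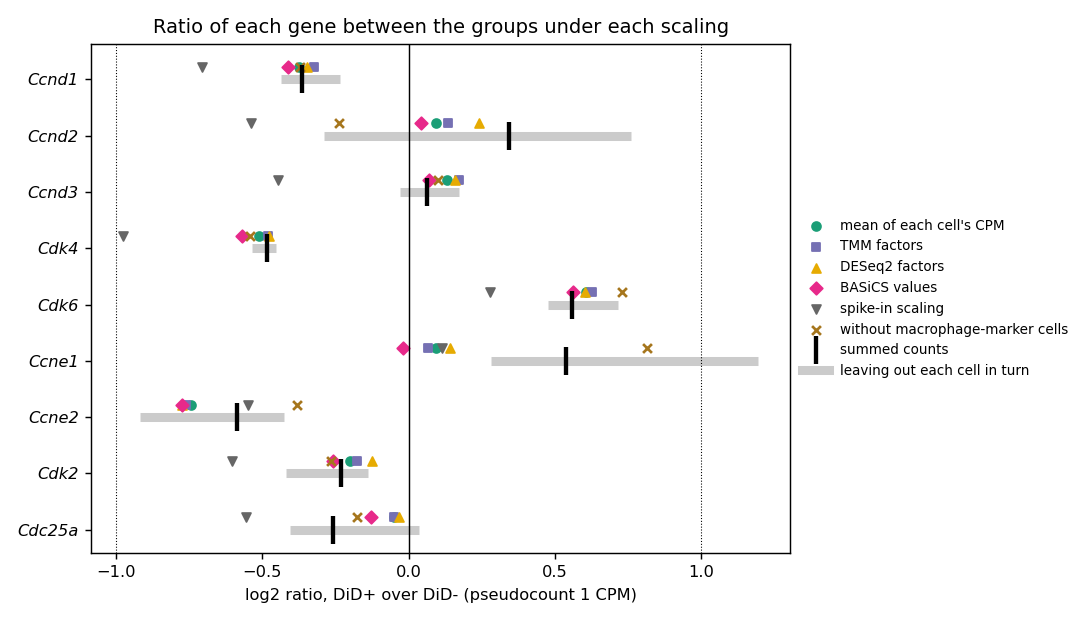
Log2 ratio of DiD+ over DiD- (x axis, pseudocount 1 CPM) for each gene (rows), from summed counts (black bar), under 5 other scalings and without the macrophage-marker cells (symbols), and over leaving out each of the 60 cells in turn (grey bar). Dotted lines mark a 2-fold difference. Cdk4, Ccnd1, Ccne2 and Cdk2 stay below 0 and Cdk6 stays above 0 throughout, whereas Ccnd2, Ccnd3, Ccne1 and Cdc25a reach or cross 0.

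Among the D-type cyclins, Ccnd1 was found in every cell. Its level ran from 0.537 CPM over a median of 131 to 299 CPM in the 32 DiD+ cells, and from 44.9 over 176 to 535 CPM in the 28 DiD- cells. The ranges overlapped over most of their length, but the 4 lowest cells were all DiD+, and the 3 highest all DiD-. Of the 32 DiD+ cells, 7 lay above the DiD- median, yet the lower quartile was 105 CPM in DiD+ and 89.4 CPM in DiD-. Over all pairs of 1 DiD+ and 1 DiD- cell, the DiD+ cell was the lower in 58.3%. The median of that share over 12432 genes was 50.2%. Summed over cells, Ccnd1 had 144 CPM in DiD+ (95% exact Poisson interval 142 to 146). In DiD- it had 185 CPM (183 to 188), so the log2 ratio was -0.37. Intervals of this kind, here and below, cover counting error alone, since reads amplified by PCR without molecular identifiers are not independent molecules. LTO1, which overlaps Ccnd1, had 11.4 CPM in DiD+ and 5.89 CPM in DiD-. Leaving out each cell in turn moved the ratio of Ccnd1 between -0.43 and -0.23, and it was -0.37 without the macrophage-marker cells. With each cell scaled by its spike-in total it was -0.70, where the median of all 12432 genes was -0.33.

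A pair of DiD+ cells were all but free of Ccnd1 reads. Cell 80 had 2 counts of 3724544 (0.537 CPM) and cell 68 had 6 of 3687340 (1.63 CPM), whereas the next lowest cell, DiD+ cell 43, had 95 counts (21.6 CPM). Ccnd3, which was counted in 31 of 32 DiD+ cells at a median of 158 CPM, had 103 CPM in cell 80 and 353 CPM in cell 68. Cells 80 and 68 each had 1 of the 13 macrophage markers. Cell 68 had the fewest genes detected of all 60 cells, 6024, and cell 80 had 8222, near the DiD+ median of 8286. Whether RNA recovery had a part in the low Ccnd1 counts was not tested. The S phase sum (43 genes of DNA replication, none of them among the 9) of cell 68 was the second lowest of the 32 DiD+ cells, at 526 CPM, and that of cell 80 stood 17th from the lowest, at 1827 CPM.

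Ccnd3 had nearly the same level in both groups on the scale of summed counts. It ranged from 0 over a median of 158 to 500 CPM (499.7) among DiD+ cells and from 0 over 164 to 486 CPM among DiD- cells, and the spreads coincided almost fully. Its sum over cells was 175 CPM (173 to 177) in DiD+ and 168 CPM (165 to 170) in DiD-. The log2 ratio of 0.06 changed sign without DiD+ cell 37 (-0.03) or without all 11 cells that held at least 50% of any list of other cell types' markers (-0.02). It was also below 0 with spike-in scaling, at -0.44, where the median of all 12432 genes was -0.33. Without the macrophage-marker cells the ratio was 0.10. Only DiD+ cell 83 and DiD- cell 65 had no Ccnd3 count, and both had Ccnd1, at 146 and 298 CPM.

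Ccnd2 was almost absent. It was counted in 4 of 32 DiD+ cells (12.5%, exact Clopper-Pearson interval 3.51 to 28.99%) and in 3 of 28 DiD- cells (10.7%, 2.27 to 28.2%). In DiD+ these were cell 21 with 22.4 CPM, cell 19 with 4.83 CPM, cell 30 with 2.23 CPM and cell 37 with 0.624 CPM, all of them cells with macrophage markers. The DiD- cells were cell 84 with 17.4 CPM, which also had macrophage markers, cell 20 with 4.47 CPM and cell 74 with 0.939 CPM. Macrophage-marker cells thus held 100% of the Ccnd2 counts in DiD+ and 69.6% of those in DiD-, and the 26 other DiD+ cells had none, which allows a share of such cells of up to 13.2%. The summed levels, 0.999 CPM (0.844 to 1.18) and 0.577 CPM (0.449 to 0.731), gave a log2 ratio of 0.34, which became -0.29 without cell 21 and -0.24 without the macrophage-marker cells, and it was -0.54 with spike-in scaling. Whether those counts came from host RNA in the well was not tested.

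Levels of different genes were compared per kilobase of exonic sequence, counting all annotated exons of a gene once. On that scale Ccnd1 made up 60.3% of the D-type cyclin level in DiD+ and 67.2% in DiD-, Ccnd3 39.5% and 32.7%, and Ccnd2 0.210% and 0.105%. In single cells Ccnd1 was the highest of the 3 in 21 of 32 DiD+ cells and in 21 of 28 DiD- cells, and Ccnd3 in the other 11 and 7. The order of Ccnd1 and Ccnd3 depended on the length used. When each gene was divided by its longest transcript, the share of Ccnd1 was 45.7% in DiD+ and 53.2% in DiD-, so that Ccnd3 came first in DiD+. By either length, the share of Ccnd1 was lower in DiD+ than in DiD-. Without the macrophage-marker cells the shares by exonic length were 60.3% and 67.9%.

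**Figure D2:**
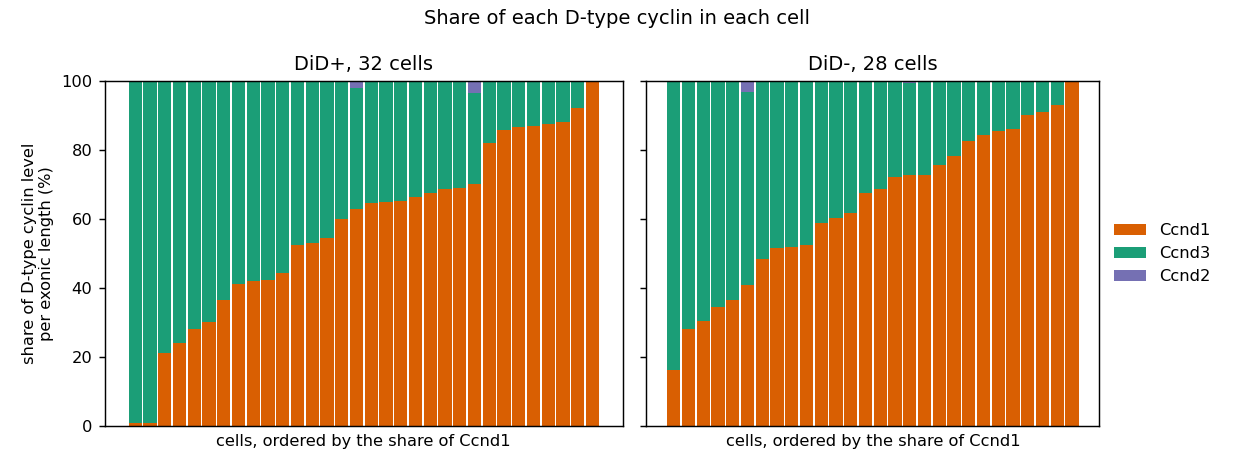
Share of each D-type cyclin (y axis, percent of the summed level per exonic length) in each DiD+ cell (left) and DiD- cell (right), 1 bar a cell, ordered by the share of Ccnd1. Shares of Ccnd1 run from 0.853% to 100% in DiD+ and from 16.4% to 100% in DiD-, and Ccnd2 is visible in few cells.

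Cdk4, the partner of the D-type cyclins and the most abundant of the 9 genes per length, had the narrowest range of ratios when single cells were left out. It was counted in all 60 cells, from 200.4 over a median of 544 to 1158 CPM in DiD+ and from 286 over 831 to 1399 CPM in DiD-. The groups overlapped at both ends, yet only 4 of 32 DiD+ cells lay above the DiD- median, and 3 lay below the lowest DiD- cell. Taking every pair of 1 DiD+ and 1 DiD- cell, the DiD+ cell was the lower in 78.7% of pairs. Across the 12432 genes this share had a median of 50.2% and a 95th percentile of 66.5%, and Cdk4 stood at percentile 99.8, a description of these cells only. Genes without counts in many cells have tied pairs, which pull their share toward 50%, and no background of equally detected genes was made. By its log2 ratio Cdk4 stood at percentile 15.8 of the same genes, counted from the lowest. Summed Cdk4 was 572 CPM (568 to 576) in DiD+ and 800.1 CPM (795 to 805) in DiD-. Its log2 ratio of -0.48 stayed between -0.54 and -0.45 whichever cell was left out. It was -0.54 without the macrophage-marker cells, which were 6 of the 32 DiD+ cells and had held 22.8% of the Cdk4 counts in DiD+.

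The size of the Cdk4 difference depended on the scaling more than on any cell. With each cell scaled by its spike-in total, the median ratio of all 12432 genes moved from 0.04 to -0.33, and Cdk4 moved with it to -0.97, or -0.64 relative to that median. Relative to the median under each of the 4 other scalings, Cdk4 lay between -0.57 and -0.54. Tspan31, whose exons overlap those of Cdk4 on the opposite strand, had 286 CPM in DiD+ and 253 CPM in DiD-, a log2 ratio of 0.18.

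Cdk6, which binds the same cyclins, went the other way. Its level ran from 0 over a median of 39.3 to 143 CPM among DiD+ cells, and in DiD- from 0 over 16.2 to 113 CPM. The 2 highest of all cells were DiD+, and 20 of 32 DiD+ cells lay above the DiD- median, with wide overlap. Counts were found in 30 of 32 DiD+ cells (93.8%, 79.2 to 99.2%) and in 24 of 28 DiD- cells (85.7%, 67.3 to 96.0%). The summed levels of 46.4 CPM (45.3 to 47.6) and 31.2 CPM (30.2 to 32.3) gave a log2 ratio of 0.56. It lay between 0.48 and 0.71 over the cells left out in turn. With spike-in scaling it was 0.28, or 0.61 relative to the median of all genes under that scaling. Without the macrophage-marker cells, which were 6 of the 32 DiD+ cells and held 8.61% of the Cdk6 counts in DiD+, the ratio was 0.73.

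Per exonic length Cdk4 exceeded Cdk6 in every cell and made up 98.1% of their joint level in DiD+ and 99.1% in DiD-. Cdk6 thus took 1.85% in DiD+ and 0.899% in DiD-, and its share reached 14.2% in the DiD+ cell where it was highest. With Cdk2 included, Cdk4 still held 94.4% of the kinase level in DiD+ and 95.8% in DiD-. The opposite ratios of the 2 partners of the D-type cyclins therefore concerned an abundant transcript that was lower and a scarce one that was higher.

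**Figure D3:**
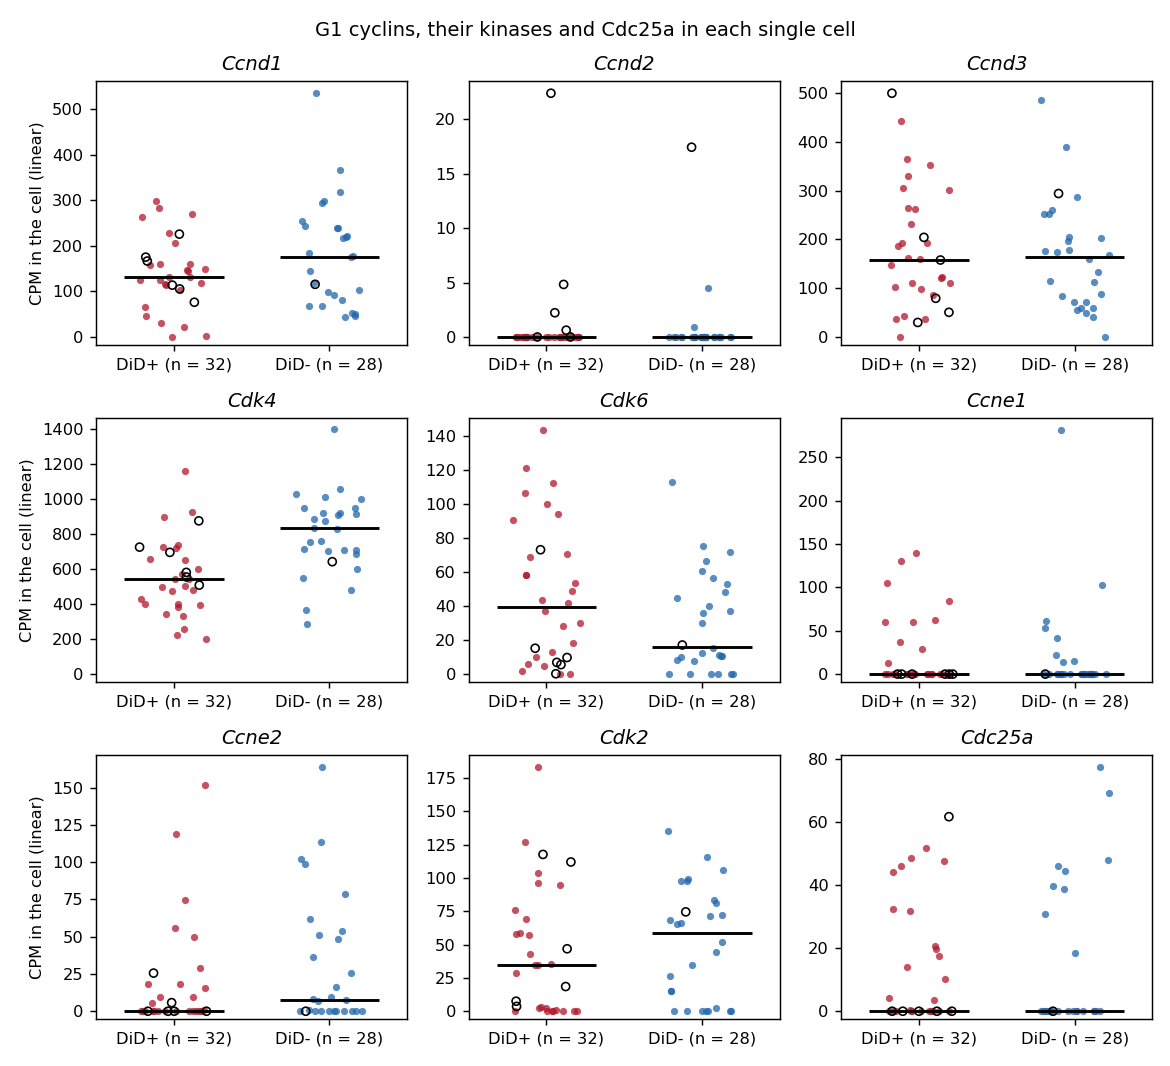
Level of each gene (y axes, CPM, linear and scaled for each gene) in every DiD+ (red, n = 32) and DiD- (blue, n = 28) cell, with black open circles for cells with at least 7 of 13 macrophage markers and a line at the median over all cells of the group. Cdk4 shows the clearest shift, with medians of 544 and 831 CPM, Ccnd2 is seen mainly in open circles, and Ccne1, Ccne2 and Cdc25a are at 0 in many cells of both groups.

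The E-type cyclins had counts in some cells and none in others. A cell without counts may still have held transcripts that were lost before amplification, which was not tested. Ccne1 was counted in 10 of 32 DiD+ cells (31.3%, 16.1 to 50.01%) and in 9 of 28 DiD- cells (32.1%, 15.9 to 52.4%), 1 of which, cell 32, had a single count. Its median was 0 CPM in each, and its highest values were 140 CPM in DiD+ cell 35 and 281 CPM in DiD- cell 73. Summed levels of 26.3 CPM (25.5 to 27.2) and 17.9 CPM (17.1 to 18.6) gave a log2 ratio of 0.54, but this came from few cells. In DiD+ the 3 cells with the most counts held 58.4% of them, and in DiD- 72.3%. Cell 73 alone held 40.2% of the DiD- counts. The ratio was 1.19 without that cell and 0.28 without DiD+ cell 82. Averaged with equal weight for each cell it was 0.09, and with the BASiCS values -0.02, so these cells give no steady direction for Ccne1. None of the macrophage-marker cells had a Ccne1 count, and without them the ratio was 0.82.

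Ccne2, the second E-type cyclin, was counted in 15 of 32 DiD+ cells (46.9%, 29.1 to 65.3%) and in 17 of 28 DiD- cells (60.7%, 40.6 to 78.5%). The intervals overlapped, and the shares were the same after each cell was thinned to 2200000 counts. Levels ran from 0 over a median of 0 to 152 CPM in DiD+ and from 0 over 7.81 to 164 CPM in DiD-. The sums were 20.9 CPM (20.2 to 21.7) in DiD+ and 31.9 CPM (30.8 to 32.9) in DiD-, which is -0.59 on the log2 scale. Ccne2 was lower in DiD+ under every scaling and with any cell left out, between -0.92 without DiD+ cell 18, which held 24.1% of the DiD+ counts, and -0.42 without DiD- cell 73. Without the macrophage-marker cells it was -0.38. Ints8, which overlaps Ccne2 on the opposite strand, had a ratio of -0.69.

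Ccne1 was rarely seen alone. Of the 10 DiD+ cells with Ccne1 counts 8 also had Ccne2, as had 8 of the 9 such DiD- cells. Ccne2 without Ccne1 was found in 7 DiD+ and 9 DiD- cells, and neither was found in 15 of 32 DiD+ cells (46.9%, 29.1 to 65.3%) and 10 of 28 DiD- cells (35.7%, 18.6 to 55.9%). Per exonic length Ccne1 made up 62.3% of the E-type level in DiD+ and 42.4% in DiD-. As with the ratio, this rested on few cells: averaging each cell's own share gave 42.5% in DiD+ and 29.6% in DiD-, and without cell 73 the DiD- share from summed counts was 33.6%.

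Cdk2, the kinase of the E-type cyclins, was found in 25 of 32 DiD+ cells (78.1%, 60.03 to 90.7%) and in 22 of 28 DiD- cells (78.6%, 59.0 to 91.7%). Its level ran from 0 over a median of 34.6 to 183 CPM in DiD+ and from 0 over 58.7 to 135 CPM in DiD-. The single highest cell was DiD+ cell 25, and 10 of 32 DiD+ cells lay above the DiD- median. With 44.7 CPM (43.6 to 45.8) and 52.7 CPM (51.4 to 54.0), the log2 ratio was -0.23, and it ranged from -0.42 to -0.14 over the cells left out in turn. The ratio of -0.23 is inside the middle 50% of all genes. With spike-in scaling the ratio was -0.60, or -0.27 relative to the median of all genes under that scaling. Without the macrophage-marker cells, which were 6 of the 32 DiD+ cells and held 22.5% of the Cdk2 counts in DiD+, the ratio was -0.26.

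Cdc25a showed a contrast between how many cells had it and how much they had. It was counted in 16 of 32 DiD+ cells (50%, 31.9 to 68.1%) and in 9 of 28 DiD- cells (32.1%, 15.9 to 52.4%), with overlapping intervals. Among the cells with counts the median was 26.3 CPM in DiD+ and 44.3 CPM in DiD-, and the highest cells had 61.7 and 77.3 CPM. The summed levels of 14.1 CPM (13.5 to 14.7) and 17.01 CPM (16.3 to 17.8) gave a log2 ratio of -0.26. It turned to 0.03 without DiD- cell 28, which held 23.6% of the DiD- counts. Over the 5 other scalings the ratio ran from -0.56 with spike-in scaling to -0.03 with DESeq2 factors, with -0.05 for equal cell weights. Without the macrophage-marker cells it was -0.18. In DiD+, 5 of the 16 cells with Cdc25a had no count on either E-type cyclin, against 1 of 9 in DiD-.

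Counting Ccne1, Ccne2 and Cdc25a together, none of the 3 was found in 10 of 32 DiD+ cells (31.3%, 16.1 to 50.01%) and 9 of 28 DiD- cells (32.1%, 15.9 to 52.4%). All 3 were found in 5 DiD+ cells (15.6%, 5.28 to 32.8%) and 5 DiD- cells (17.9%, 6.06 to 36.9%). Cells with counts on all 3 of these genes and cells with counts on none of them were thus present in both groups.

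Per exonic length the order of the 9 genes was nearly the same in the groups. Cdk4 came first, with 176 CPM per kilobase in DiD+ and 246 in DiD-, followed by Ccnd1 with 30.5 and 39.3, and Ccnd3 with 19.98 and 19.1. Ccne1 (9.90 and 6.71), Cdk2 (7.19 and 8.47) and Ccne2 (5.98 and 9.11) followed, and Ccne1 and Ccne2 exchanged places between the groups. Cdk6 (3.32 and 2.23), Cdc25a (1.75 and 2.12) and Ccnd2 (0.106 and 0.0614) were the lowest in both. The order below Cdk4 depended on the length used. Per kilobase of the longest transcript, Ccnd3 passed Ccnd1 (45.4 against 38.4) and Cdk2 passed Ccne1 (13.7 against 13.2) in DiD+, and in DiD- Cdk2 passed Ccne2 (16.1 against 10.6) and Cdc25a passed Cdk6 (4.53 against 2.71). In DiD- some neighbours in this order did not differ beyond the shifts from leaving out 1 cell: Ccne2 (8.13 to 9.51) and Cdk2 (7.93 to 8.84), and Cdk6 (1.99 to 2.33) and Cdc25a (1.71 to 2.21). Over single cells, the middle 50% of Cdk4 levels lay apart from that of Ccnd1 in both groups, while those of all other neighbours overlapped.

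Within each group, Ccne2 and Cdk2 followed the summed S phase genes more closely than the D-type cyclins and their kinases did. The exception was Cdk2 in DiD+, which followed the sum about as closely as Ccnd1. Spearman's rho between a gene's level and the S phase sum was 0.66 over the 32 DiD+ cells and 0.67 over the 28 DiD- cells for Ccne2. It was 0.45 and 0.78 for Cdk2, 0.43 and 0.39 for Ccne1, and 0.21 and 0.53 for Cdc25a. The values are descriptions of cells handled with the same kit, in which a gene and the sum are divided by the same cell total. Without the 2 cells farthest from the median sum they were 0.58 and 0.59 for Ccne2 and 0.41 and 0.72 for Cdk2, but Ccne1 fell to 0.28 in DiD+. Without the macrophage-marker cells rho in DiD+ was 0.61 for Cdk2 and 0.49 for Ccnd1.

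For Cdk4 rho with the S phase sum was 0.27 in DiD+ (0.15 without the 2 farthest cells) and 0.42 in DiD-, and for Cdk6 0.05 and -0.04. Ccnd1 had 0.46 in DiD+ and 0.09 in DiD-. Ccnd3 had a negative rho with the sum of 54 G2/M genes in both groups, -0.47 and -0.59, so cells high in mitotic transcripts tended to be low in Ccnd3. Its rho with the S phase sum was -0.41 in DiD+ and 0.14 in DiD-. Medians of the S phase sum were 1752 CPM over DiD+ cells and 4607 CPM over DiD- cells, and the part of these sums in the group differences above was not tested.

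**Figure D4:**
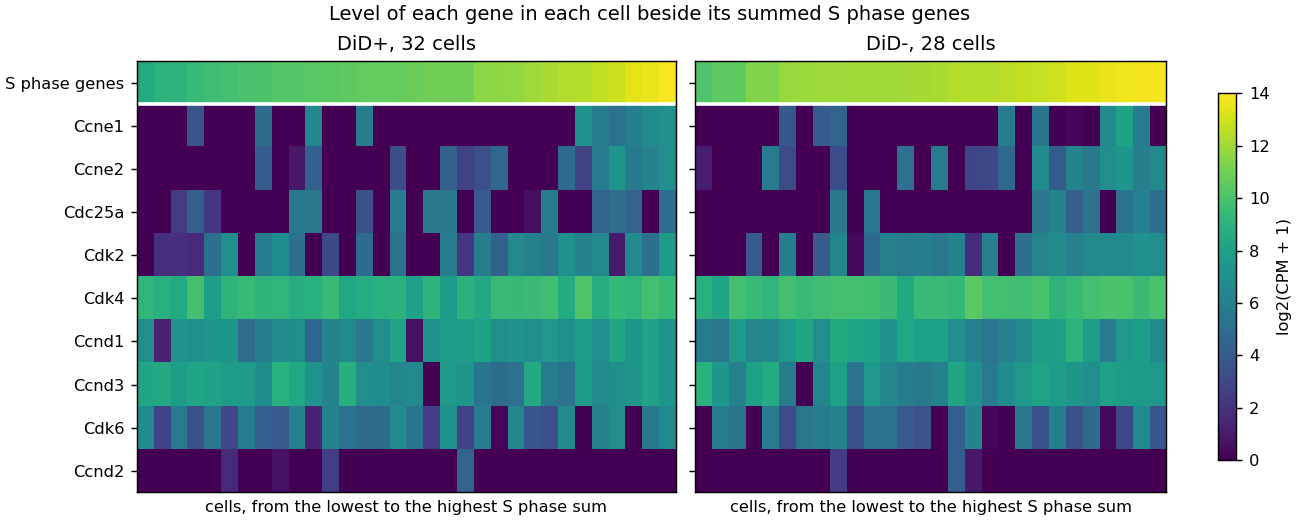
Level of each gene (rows, colour as log2(CPM + 1)) in each of the 32 DiD+ (left) and 28 DiD- cells (right), with cells ordered from the lowest to the highest summed S phase level (top row). Ccne2, Cdk2 and, in part, Ccne1 fill in toward the right of each panel, whereas Cdk4, Ccnd1 and Ccnd3 are present across it and Cdk6 is scattered.

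For the 6 members with a count in at least 30 of the 60 cells (a limit that left out Ccnd2, Ccne1 and Cdc25a), the 3 genes most like each were found by Spearman's rho over all cells among 8372 genes. Nearest to Ccne2 were Pcna (0.70), the sliding clamp of DNA polymerase, Chaf1b (0.69), which loads histones behind the fork, and Mcm2 (0.67), a subunit of the replicative helicase. Nearest to Cdk2 were Mcm7 (0.63), Pola2 (0.61) and Dck (0.60), all of them genes of DNA replication or nucleotide supply.

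The D-type cyclins and their kinases had other neighbours. Ccnd1 was most like Nop58 (0.65), a component of small nucleolar ribonucleoproteins, Hmga1 (0.60) and Mrto4 (0.59), a ribosome assembly factor. Cdk4 was most like Dctpp1 (0.68), a pyrophosphatase of dCTP, and the prolyl isomerases Ppil1 (0.67) and Fkbp1a (0.67). Ccnd3 had Ttc3 (0.59), Mgp (0.49) and Armcx1 (0.49), and Cdk6 had Smim13 (0.55), Parp6 (0.51) and Rab10 (0.50). For every member the cells of both groups were pooled, so a difference between the groups can enter these values. Each is among the highest of 8372 rho values, and how high such values would lie by chance was not tested.

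Beyond the cyclins and kinases, 46 other genes of G1/S control were read in 8 groups by role. Of the 43 with at least 1 CPM in a group, 30 were lower and 13 higher in DiD+, with a median log2 ratio of -0.34. Here, and for each group by role below, the background is that 46.7% of all 12432 genes were lower in DiD+. Past 2-fold were 6 of the 43 in the lower direction, against 4.86% of all genes, and 1 in the higher, against 12.1%. The list was put together with earlier results of these data known, and no test was made of it.

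All 8 licensing genes were lower in DiD+, with a median of -0.87, from Mcm3 (-1.58) to Mcm4 (-0.67), both of them subunits of the helicase that origins load in G1. All 4 later cyclins and their kinase were lower too, with a median of -0.50, from Cdk1 (-0.91), the kinase of mitotic entry, to Ccnb2 (-0.20), but without DiD- cell 27 the ratios of Ccnb1 and Ccnb2 were 0.11 and 0.02. Without the macrophage-marker cells that median was -0.28 and Ccnb1 stood at 0.05. Lower as well were all 5 of the group of CDC25 phosphatases and the kinases that oppose them, with a median of -0.43, from Chek1 (-1.45), the checkpoint kinase that marks CDC25A for destruction, to Wee1 (-0.09), which puts the inhibitory phosphate on CDKs. Wee1 had no steady direction, with 0.13 without the macrophage-marker cells and 0.01 or 0.02 under 3 scalings, and without those cells the median of the group was -0.27.

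The E2F and DP factors were divided, 7 lower and 3 higher, with a median of -0.42. E2f7, a repressor of the family, was the lowest (8.82 against 25.2 CPM, -1.42). E2f2, an activator, was the highest (1.63), though it was counted in 4 DiD+ and 2 DiD- cells. Without DiD+ cell 30, a macrophage-marker cell that held 59.1% of its DiD+ counts, its ratio was 0.79, and without all macrophage-marker cells it was -0.25. Of the pocket proteins, Rbl1 was the lowest (11.001 against 34.8 CPM, -1.58) and Rb1, the retinoblastoma protein itself, the highest (30.2 against 18.98 CPM, 0.64).

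CDK inhibitors had a median of 0.08, and of 0.32 without the macrophage-marker cells. With spike-in scaling it was -0.21, where the median of all genes was -0.33. Cdkn1a, which encodes p21, was the highest (688 against 364 CPM, 0.91), and it was counted in all 60 cells. Cdkn1b, which encodes p27, was the lowest (2.44 against 3.02 CPM, -0.23) and was counted in 11 DiD+ and 14 DiD- cells. Its ratio was 0.22 without DiD- cell 74. Those of the group under 1 CPM in both DiD+ and DiD- are named here after their values were seen: Cdkn2a and Cdkn2b, whose products bind CDK4 and CDK6, had no counts in any cell, and Cdkn1c had none in DiD+ and 0.452 CPM in DiD-. The CDK-activating kinase had a median of 0.00, and between -0.30 and -0.06 under the 5 other scalings, from Mnat1 (-0.09) to Cdk7 (0.38). Cdk7 was at -0.22 with spike-in scaling, and Mnat1 at 0.03 without the macrophage-marker cells. Without those cells the median of this group was 0.08. The turnover genes had a median of 0.01, below 0 under all 5 other scalings and 0.14 without the macrophage-marker cells. They ran from Skp2 (-0.91), which marks p27 for destruction, to Fbxw7 (0.52), which marks cyclin E for destruction.

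**Figure D5:**
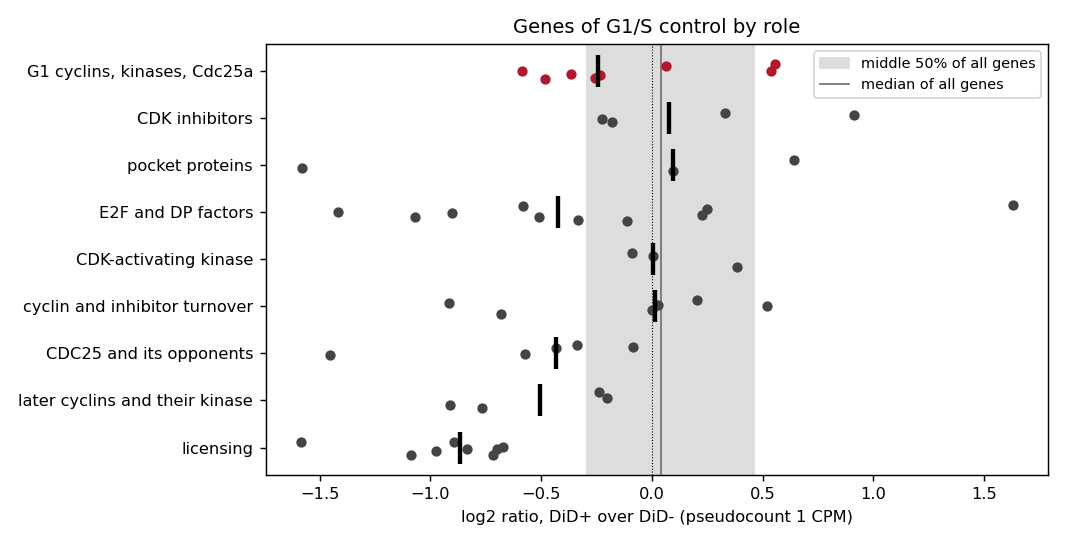
Log2 ratio of DiD+ over DiD- (x axis, pseudocount 1 CPM) of the G1 cyclins, kinases and Cdc25a (red) and of other G1/S control genes by role (dark points), each with at least 1 CPM in a group, with the median of each row as a bar. The grey band is the middle 50% of all 12432 genes, from -0.29 to 0.46. The licensing genes all lie to its left, while the cyclins and kinases fall on both sides of 0.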

How the data were processed

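Per the authors' methods and labels, reads from SMARTer and Nextera XT libraries were aligned with STAR to GRCm38 (mm10) with spike-in and transgene sequences and counted per gene by RSEM. The deposited values are these estimated counts, not normalized (96.7% of values were whole), and a table of normalized signal that the authors had made with BASiCS, used here only as another scaling. All 120 columns were matched to cells by label, and 0 were left unused. Values were rounded to whole counts, and totals left out 92 spike-ins and 4 transgenes.

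Counts were summed per group and given as CPM, with exact Poisson and Clopper-Pearson intervals at 95%. Gene names, exonic lengths and overlaps came from GENCODE for GRCm38, and promoters from RefSeq (GRCm38.p6). The 9 genes were given by name. In the other lists the highest and the lowest ratio were named, and for each of the 9 with counts in 30 cells the 3 most alike genes. Members and lists were chosen with earlier results of these data known. Other scalings used TMM factors (edgeR 4.0.16), size factors (DESeq2 1.42.0) and spike-in totals. The ratio and interval code was tested on simulated data. Doublets were not called, and no cell was left out of the main values. Python 3.11.15, pandas 2.3.3, scipy 1.17.1 and R 4.3.3 were used.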

Additional observations from a re-analysis of the deposited data

How the results depend on the processing

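The median log2 ratio of the 9 genes (-0.23) was -0.0496 as the mean of each cell's CPM, -0.13 with BASiCS values, -0.55 with spike-in scaling, -0.0499 with TMM factors and -0.0332 with DESeq2 factors. Over leaving out each cell in turn it ran from -0.33 to 0.0347. The number of genes lower in DiD+ was 5, from 4 to 6 with 1 cell left out and from 5 to 7 under the other alternatives, with 7 under spike-in scaling. No gene passed 2-fold under any other setting, except Ccne1 without DiD- cell 73, so the count with 1 cell left out was 0 to 1. For the other G1/S control genes the median (-0.34) was -0.78 with spike-in scaling, which moved the median of all genes to -0.33, -0.47 with a minimum of 10 CPM, and from -0.49 to -0.295 with 1 cell left out. No paired analysis was possible because the cells carry no number shared between groups. Of 423 values recomputed under the other alternatives, 317 stayed within their counting interval (for a median over cells its quartiles, and for a correlation an approximate interval) and 106 moved outside it. The cause was not tested. Depth limits little here except for Ccnd2 and for genes near 0.0251 CPM, and the number of mice behind each group cannot be told.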

Other observations

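Among the 36 pairs of the 9 genes, Ccne1 and Ccne2 had the highest Spearman's rho that both groups shared, 0.58 over the 32 DiD+ and 0.55 over the 28 DiD- cells. Ccnd1 and Cdc25a followed with 0.37 and 0.45, and Ccne2 and Cdk2 with 0.37 and 0.57. Ccnd1 and Ccnd3, which bind the same kinases, had -0.12 and -0.29, and Cdk4 and Cdk6, which bind the same cyclins, had -0.24 and -0.06. These values describe cells handled with the same kit, and zeros make up a large part of the E-type cyclin and Cdc25a values.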
